A study of Mus musculus with 10 samples.

Results

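The 10 genes described here encode receptors of bone morphogenetic proteins (BMPs) and of transforming growth factor beta (TGF-beta), SMAD proteins that carry their signal, and ID proteins that are classic products of it. They are Bmpr1a, Bmpr2, Acvr1, Tgfbr1, Tgfbr2, Smad4, Smad7, Id1, Id2 and Id3, and they were chosen by symbol as 10 of the 24544 rows of the deposited count table. All 10 were found there, and 9 had enough reads to be tested. The libraries came from long-term hematopoietic stem cells of bone marrow, taken from Hoxb5-mCherry mice of 2 to 3 months, a strain in which a fluorescent protein reports Hoxb5. Cells of both groups were Hoxb5+ and FLK2-, CD34-, CD48- and CD150+ within the Lin- cKIT+ SCA1+ fraction, and no treatment was given in the labels. They differed in surface neogenin-1 (NEO1), with 5 libraries of NEO1+ cells, called positive here, and 5 of NEO1- cells, called negative. Each library was a pool of 250 to 500 cells from 2 mice, so a value is a mean over cells and animals. Fewer cells with a transcript and less transcript per cell cannot be told apart in such pools.

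Ligands of this family bring together a type II receptor (Bmpr2 for BMPs, Tgfbr2 for TGF-beta) and a type I receptor (Bmpr1a and Acvr1, or Tgfbr1). The type I receptor then phosphorylates receptor SMADs, which enter the nucleus with SMAD4, while SMAD7 blocks the type I receptor and is itself induced by the pathway. ID proteins lack a DNA-binding region and hold E proteins away from DNA. Neogenin binds repulsive guidance molecules, which act as BMP co-receptors, and TGF-beta is known for keeping stem cells of the marrow at rest. The series asks whether NEO1 separates myeloid-biased from balanced stem cells.

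Library totals ran from 21.18 to 38.95 M counts. Of these, the gene Rn45s alone held 27.9% to 37.7% in positive and 30.7% to 42.4% in negative libraries. Genes detected numbered 12800 to 13808 in positive and 11477 to 13147 in negative libraries, and negative libraries 1, 2, 3 and 5 had fewer than any positive library. Levels are CPM (counts of a gene scaled to equal library size) on TMM-scaled library sizes. A count of 0 allows up to 0.0699 to 0.144 CPM depending on the library (3 counts, a limit that covers counting error only, since the reads carry no molecular identifiers). Transcripts of Neo1, whose surface protein was the basis of the sort, stood at 64.8, 48.6, 59.6, 12.5 and 52.05 CPM in the libraries labelled NEO1+ 1 to 5. Those labelled NEO1- had 18.9, 11.5, 12.2, 4.56 and 6.15 CPM. The library labelled NEO1+ 4, called positive library 4 after its label, was thus inside the negative range and below negative library 1, so its Neo1 transcript level went against its label. Results are given with it, and the count of members past the threshold was 0 of 9 without it too. Marker genes were summed per library. The 8 stem cell markers came to 1440 to 1630 CPM on the positive side and 1300 to 1650 CPM on the negative side. For 8 stromal markers the sums were 3.79 to 42.2 and 0 to 21.1 CPM, with Lepr, Col3a1 and Lum at 0 throughout, and for 8 endothelial markers 268 to 320 and 140 to 351 CPM, with Cdh5 at 0. B cell markers came to 34.1 to 51.7 and 26.1 to 60.9 CPM (Ms4a1 and Pax5 at 0), and T cell markers to 26 to 47.9 and 12.9 to 52.7 CPM (Cd3e, Cd8a and Gzma at 0). Neutrophil markers came to 491 to 4740 and 380 to 2950 CPM, and erythroid markers to 22.8 to 315 and 9.74 to 199 CPM. A pair of lists did not overlap between the groups. Genes of dividing cells summed to 301 to 473 CPM in positive against 118 to 220 CPM in negative libraries, with 10 of 10 higher, and megakaryocyte and platelet markers to 301 to 377 against 147 to 220 CPM, with 5 of 8 higher. The part of these lists, and of the number of genes detected, in the values below was not tested.

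Of the 9 members tested, none passed the threshold between NEO1+ and NEO1- stem cells. The 4 members with a higher fitted level in NEO1+ were Tgfbr1, Tgfbr2, Smad7 and Id2, and the 5 with a lower one were Bmpr1a, Bmpr2, Acvr1, Smad4 and Id1. On the log2 scale the fold changes of Bmpr2, Tgfbr2, Smad4, Smad7 and Id2 lay between -0.39 and 0.39, and the groups overlapped for all 10 genes. By edgeR 0 of 9 tested members had an adjusted p under 0.05, against 0.0% of the 12203 genes tested, and 0 of 9 had an unadjusted p under 0.05, against 6.6% of all genes. Non-overlapping groups were found for 2.48% of all genes. DESeq2 also gave 0 of 9 after adjustment, against 0.983% of all genes, and 0 of 9 with a replicate block, against 5.7%. The median log2 fold change was -0.10 over the 9 members and 0.01 over all genes tested. These counts are close to the background and set the members apart in neither direction.

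**Figure D1:**
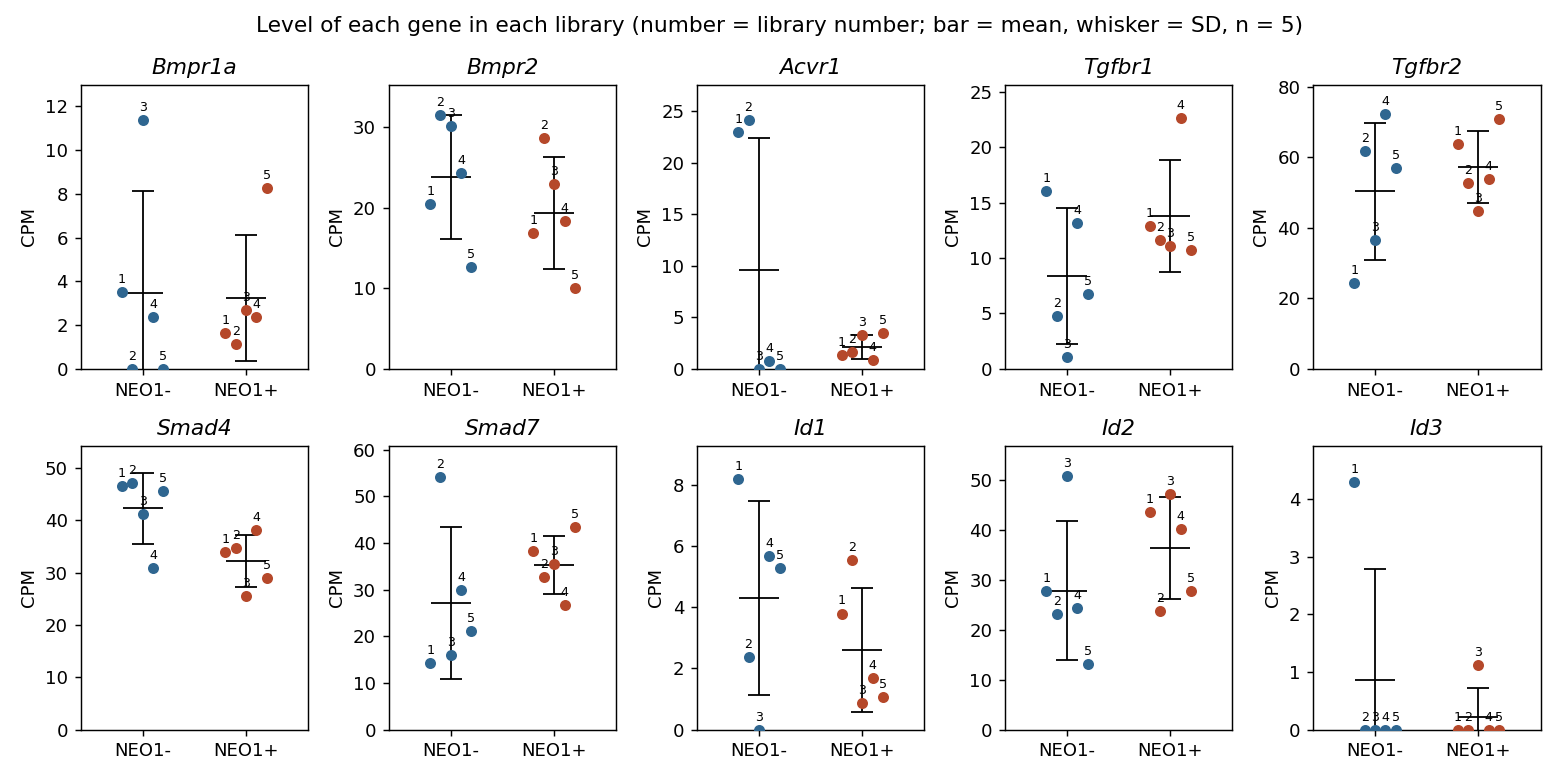
Level in CPM (linear axis from 0) of each of the 10 genes in the 5 NEO1- (blue) and 5 NEO1+ (red) libraries, with library numbers, the mean and the SD (n = 5, whiskers cut off at 0). The groups overlap in every panel, and the SD of the negative libraries is larger than that of the positive libraries in every panel.

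Among the BMP receptors, the type II receptor Bmpr2 (chr1:59763400-59879014, plus strand of GRCm38) varied least. Its level was 16.8, 28.7, 23.0, 18.4 and 10.05 CPM in positive libraries 1 to 5 and 20.5, 31.6, 30.1, 24.3 and 12.6 CPM in negative libraries 1 to 5. The groups overlapped almost entirely, with library 5 lowest and library 2 highest on both sides. The means were 19.4 ± 6.97 and 23.8 ± 7.69 CPM (SD, n = 5 each). The fold change on the log2 scale was -0.30 (SE 0.35, 95% interval -1.05 to 0.46, edgeR adjusted p 0.988).

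The type I receptor Acvr1 (chr2:58388644-58567157, minus strand), also called ALK2, was the member with the largest fitted difference and one of the least certain. In the 5 positive libraries, in order, it reached 1.39, 1.64, 3.31, 0.852 and 3.46 CPM. In negative libraries 1 and 2 it stood at 23.0 and 24.2 CPM, while negative library 4 had 0.790 CPM and negative libraries 3 and 5 had 0 counts. The NEO1- group therefore held both the highest and the lowest values, and the positive libraries all lay between them. The log2 fold change of -2.17 (SE 1.57, 95% interval -5.55 to 1.21, edgeR adjusted p 0.901) was carried by negative libraries 1 and 2. It was -1.55 without the first and -1.48 without the second. Fits that average log values turned the sign, to 1.68 in limma-voom and 1.12 on the deposited log2 values. The replicate block gave 0.49 in edgeR.

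Bmpr1a (chr14:34410734-34503341, minus strand), the other type I receptor for BMPs, was low and uneven. Its level was 1.63, 1.15, 2.70, 2.37 and 8.25 CPM in positive libraries 1 to 5 and 3.53, 0, 11.4, 2.37 and 0 CPM in negative libraries 1 to 5. A single library stood high in each group, positive library 5 and negative library 3, and the 2 negative libraries at 0 were numbers 2 and 5. On the log2 scale the fold change was -0.10 (SE 1.49, 95% interval -3.32 to 3.12, edgeR adjusted p 0.9997), an interval that spans several fold in either direction. It was 1.12 without negative library 3, 0.07 without positive library 1 and 0.11 without positive library 2. It was also positive in limma-voom (2.16), on the deposited log2 values (1.98) and with the replicate block in edgeR (1.23).

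The 2 further type I receptors that can carry BMP signals added little. Bmpr1b had 0 counts in all libraries, and Acvrl1 had 72 counts in negative library 5 and 0 elsewhere. Summed over these 4 genes, type I receptors for BMPs came to 3.03, 2.79, 6.01, 3.22 and 11.7 CPM in positive libraries 1 to 5. In negative libraries 1 to 5 the sum was 26.5, 24.2, 11.4, 3.16 and 2.38 CPM. Negative library 5 thus had reads of neither Bmpr1a nor Acvr1 but was the only library with Acvrl1.

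Every 0 count among the tested members was in a negative library: 2 for Bmpr1a, 2 for Acvr1 and 1 for Id1. Any 0 in a negative library was found for 17.9% of all tested genes, and any 0 in a positive library for 6.68%. Of the genes in the range of these 3 members, 40.2% of 2366 with a mean level of 2 to 10 CPM had a 0 in at least 1 negative and no positive library, against 3.17% with the reverse. Over all tested genes the shares were 12.1% and 0.877%. The negative libraries with these zeros, numbers 2, 3 and 5, detected 12053, 11593 and 12441 genes, fewer than any positive library. Negative library 1 detected the fewest genes of all, 11477, and had 111, 723 and 257 counts of Bmpr1a, Acvr1 and Id1. The part of gene detection in these zeros was not tested.

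Neither TGF-beta receptor differed beyond the spread of the libraries in edgeR. Tgfbr2 (chr9:116084293-116175360, minus strand), the type II receptor that binds the ligand first, was at 63.9, 52.9, 44.7, 53.8 and 70.8 CPM in positive libraries 1 to 5. Negative libraries 1 to 5 gave 24.4, 61.9, 36.6, 72.2 and 56.9 CPM. Negative libraries 1 and 3 lay below all positive libraries and negative library 4 above them. The means of 57.2 ± 10.2 and 50.4 ± 19.5 CPM (SD, n = 5 each) differed by 0.18 log2 units (SE 0.27, 95% interval -0.40 to 0.76, edgeR adjusted p 0.997).

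Tgfbr1 (chr4:47353222-47414931, plus strand), the kinase that phosphorylates SMAD2 and SMAD3, was at 12.9, 11.6, 11.05, 22.6 and 10.7 CPM in positive libraries 1 to 5. Against this, negative libraries 1 to 5 held 16.04, 4.73, 1.084, 13.1 and 6.78 CPM. Of the negative libraries, numbers 2, 3 and 5 were below every positive library, and numbers 1 and 4 were among the NEO1+ values. Its log2 fold change was 0.72 (SE 0.62, 95% interval -0.62 to 2.07, edgeR adjusted p 0.940). It ranged from 0.44 without negative library 3 to 1.10 without negative library 1, and was 0.47 without positive library 4, the highest library for Tgfbr1 and the one with low Neo1. The replicate block in DESeq2 gave 1.09 (unadjusted p 0.0483, adjusted 0.277), with library numbers that were not taken as pairs.

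Since the ratio of 2 genes within a library does not depend on library scaling, Tgfbr2 counts were divided by Tgfbr1 counts. The median ratio was 4.54 in positive libraries (2.38 to 6.60) and 8.40 in negative libraries (1.52 to 33.8). The NEO1+ range lay inside the NEO1- range. These ratios were chosen after the values were seen and were not tested.

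**Figure D2:**
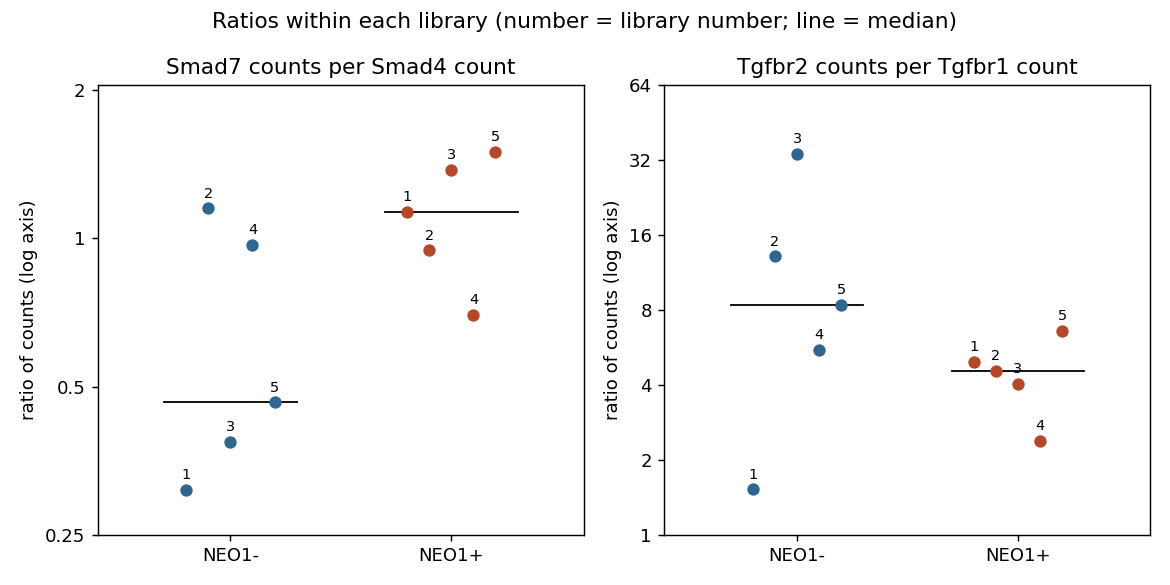
Counts of Smad7 per count of Smad4 (left) and of Tgfbr2 per count of Tgfbr1 (right) in each library, on log axes, with library numbers and the group medians as lines. Of the negative libraries, numbers 1, 3 and 5 have Smad7 to Smad4 ratios of 0.308 to 0.464, below all positive libraries, while numbers 2 and 4 are among them.

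Smad4 (chr18:73639009-73703780, minus strand), the common partner of all receptor SMADs, had the smallest p of the members. Its level was 33.9, 34.7, 25.6, 38.2 and 29.0 CPM in positive libraries 1 to 5 and 46.6, 47.1, 41.3, 30.9 and 45.6 CPM in negative libraries 1 to 5. Of the negative libraries, 4 of 5 lay above all positive libraries, and negative library 4 lay among them. The means were 32.3 ± 4.98 and 42.3 ± 6.78 CPM (SD, n = 5 each). The log2 fold change was -0.39 (SE 0.21, 95% interval -0.84 to 0.06) with an unadjusted p of 0.0828 and an adjusted p of 0.818 in edgeR. When any 1 library was dropped the value lay at -0.48 to -0.32, the narrowest range among the 9 members. DESeq2 gave it an unadjusted p of 0.0497.

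Smad7 (chr18:75367529-75395935, plus strand), the inhibitory SMAD, was even in one group and split in the other. In the 5 positive libraries, in order, it reached 38.2, 32.8, 35.5, 26.8 and 43.4 CPM, while negative libraries 1 to 5 gave 14.4, 54.2, 15.9, 30 and 21.2 CPM. Negative libraries 1, 3 and 5 were below every positive library and negative library 2 was above every one. The coefficient of variation was 17.5% in positive and 60.1% in negative libraries. On the log2 scale the fold change was 0.38 (SE 0.35, 95% interval -0.37 to 1.14, edgeR adjusted p 0.953), and 0.80 without negative library 2 (unadjusted p 0.0171, adjusted 0.630).

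Smad7 counts per Smad4 count were 1.13, 0.945, 1.38, 0.700 and 1.5 in positive libraries 1 to 5 and 0.308, 1.15, 0.386, 0.971 and 0.464 in negative libraries 1 to 5. The medians were 1.13 and 0.464, with overlapping ranges. This ratio too was chosen after the values were seen.

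The Id genes differed in how widely they were detected, with Id2 in all 10 libraries, Id1 in 9 and Id3 in 2. The promoter windows of Id2 and Id3, the best and the least detected of these 3 members, are shown so that both can be read side by side. They run from 250 bases before to 50 bases after the RefSeq start on build GRCm38.p6, at chr12:25096043-25096342 on the minus strand for Id2 and chr4:136143572-136143871 on the plus strand for Id3. Both windows lie inside the spans that GENCODE M21 gives the genes, chr12:25093799-25097140 and chr4:136143497-136145755, which begin further upstream. Capitals mark 3 motifs searched on both strands: GGCGCC, a SMAD site of BMP-responsive promoters, CAGAC, the SMAD box, and CCAAT, the site of NF-Y.
Id2: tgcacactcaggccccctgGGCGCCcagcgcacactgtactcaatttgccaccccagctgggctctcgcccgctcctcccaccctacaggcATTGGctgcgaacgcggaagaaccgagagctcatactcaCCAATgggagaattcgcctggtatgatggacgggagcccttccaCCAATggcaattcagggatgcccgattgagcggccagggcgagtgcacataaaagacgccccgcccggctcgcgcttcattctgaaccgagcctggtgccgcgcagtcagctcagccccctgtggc
Id3: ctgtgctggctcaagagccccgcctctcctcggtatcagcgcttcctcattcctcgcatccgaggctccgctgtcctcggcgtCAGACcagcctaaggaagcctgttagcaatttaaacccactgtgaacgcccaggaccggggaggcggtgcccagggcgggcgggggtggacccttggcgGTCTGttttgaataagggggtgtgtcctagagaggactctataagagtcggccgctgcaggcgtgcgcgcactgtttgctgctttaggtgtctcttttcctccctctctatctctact

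The Id2 window held GGCGCC at 1 position, 231 bases before the start, and CCAAT at 3 positions, 159, 120 and 76 bases before it. The Id3 window held CAGAC at 2 positions, 167 and 68 bases before the start. Of all 32851 promoter windows of this length, 11.9% held GGCGCC, 49.6% CAGAC and 37.4% CCAAT. The E-box CANNTG, the kind of site that E proteins bind, was at 1 position in the Id2 window and 0 in that of Id3, against 72.3% of all windows. Windows were found for 7 of the 10 genes.

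Id2, which in blood is linked to myeloid, NK and innate lymphoid fates, was at 43.6, 23.7, 47.1, 40.3 and 27.7 CPM in positive libraries 1 to 5. Values of negative libraries 1 to 5 were 27.8, 23.2, 50.8, 24.4 and 13.2 CPM. Negative library 3 had the highest value of all, and the other 4 negative libraries, at up to 27.8 CPM, were close to or below the lowest positive libraries, numbers 2 and 5. The means were 36.5 ± 10.2 and 27.9 ± 13.9 CPM (SD, n = 5 each), and the log2 fold change was 0.39 (SE 0.34, 95% interval -0.34 to 1.12, edgeR adjusted p 0.946). Without negative library 3 it was 0.72 (unadjusted p 0.0345, adjusted 0.608).

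Id1 (chr2:152736251-152737410, plus strand), the best known direct BMP target, was at 3.79, 5.55, 0.886, 1.70 and 1.07 CPM in positive libraries 1 to 5. In negative libraries 1, 2, 4 and 5 it was at 8.18, 2.39, 5.68 and 5.29 CPM, and negative library 3 had 0 counts, which allows up to 0.102 CPM. Negative libraries 1 and 4 were above all positive libraries and negative library 3 below them. Its log2 fold change was -0.73 (SE 1.25, 95% interval -3.42 to 1.96, edgeR adjusted p 0.998), and between -1.21 and -0.36 with 1 library left out. It was positive in limma-voom (0.28) and on the deposited log2 values (0.18).

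Id3 had 48 counts in positive library 3 (1.12 CPM) and 135 counts in negative library 1 (4.30 CPM). The other 8 libraries had 0 counts, which allows levels of up to 0.0768 to 0.144 CPM. It failed the filter on low counts and was not tested. Unscaled by TMM, negative library 1 stood at 3.82 CPM (95% exact Clopper-Pearson interval 3.20 to 4.52) and positive library 3 at 1.23 CPM (0.909 to 1.63). These intervals cover counting error only, since the reads carry no molecular identifiers, and not the spread between libraries.

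Levels of Id1 and Id2 ran in opposite directions over the libraries, but not beyond adjustment. Over the 10 libraries Pearson's r of log2 CPM was -0.62 (permutation p 0.0240, Benjamini-Hochberg adjusted 0.0720 over 3 pairs of Id genes) and Spearman's rho -0.56 (permutation p 0.0953, adjusted 0.286). On deviations from the group means r was -0.69. Without the 2 libraries farthest from the median of Id1, numbers 3 of both groups, r was -0.34. Dropping libraries by their Id1 level narrows its range, so this cannot show whether the relation rested on them. Without negative library 3 alone r was -0.519, and without positive library 3 alone it was -0.604. In those 2 libraries 3 marker lists had the highest sums of their groups. Neutrophil markers came to 4740 (positive) and 2950 CPM (negative), erythroid markers to 315 and 199 CPM, and T cell markers to 47.9 and 52.7 CPM. The part of these lists in the relation was not tested. Id3 gave r of 0.18 with both Id1 and Id2 (permutation p 0.714 and 0.650, both 0.714 after adjustment). With each group holding 5 libraries, no r was computed for either group alone.

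Likeness was read as r of log2 CPM over 7350 genes whose mean exceeded 4. Those most like Id1 across the 10 libraries were Afdn (r 0.96), Hipk1 (0.94), Smad2 (0.93), Rtn4 (0.93) and Rabgef1 (0.92). Smad2, a receptor SMAD of the TGF-beta branch, was at 7.11 CPM in negative library 3 and at 50.3 to 84.0 CPM elsewhere, so it shared with Id1 the low value in that library. Among those most like Id2 were Xrcc6 (0.90), Eif2b1 (0.88) and Psmd12 (0.86). Those most like Id3 were Cxxc1, Rpn2, Als2cl, Rhof and Etv5 (r 0.87 to 0.90), a pattern set by 2 libraries. These are the highest of many correlations over 10 libraries that share sequencing depth, and describe the data only.

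**Figure D3:**
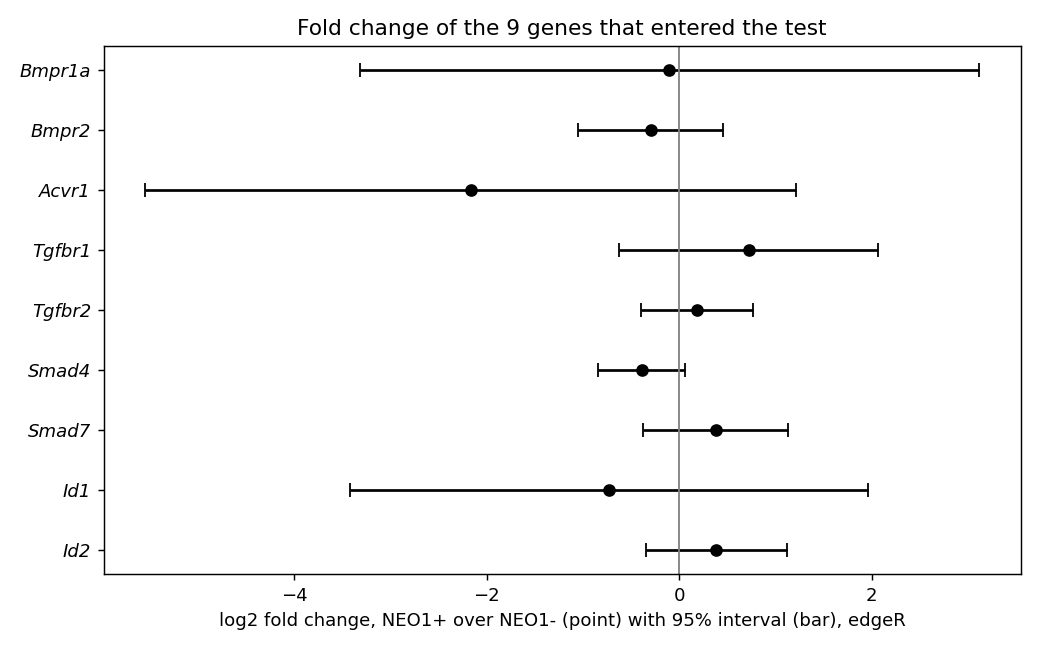
Log2 fold change of NEO1+ over NEO1- (points) with its 95% interval (bars) from edgeR for the 9 genes tested. All intervals include 0. That of Smad4 runs from -0.84 to 0.06, and those of Acvr1, Bmpr1a and Id1 span several log2 units.

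Levels can be compared between genes once divided by exon length, here CPM per kilobase of protein-coding exons. In positive libraries the order was Id2 (15 ± 4.20), Smad4 (9.03 ± 1.39), Smad7 (8.07 ± 1.41), Tgfbr2 (6.99 ± 1.24), Id1 (2.24 ± 1.74), Tgfbr1 (2.15 ± 0.782) and Bmpr2 (1.5 ± 0.540), followed by Acvr1 (0.586 ± 0.325), Bmpr1a (0.533 ± 0.475) and Id3 (0.175 ± 0.391; SD, n = 5). The steps from Id2 to Smad4, from Tgfbr2 to Id1 and from Bmpr2 to Acvr1 exceeded the summed SDs of the neighbours, and the other steps did not. In negative libraries Smad4 (11.8 ± 1.89) and Id2 (11.4 ± 5.71) led, Bmpr1a was last (0.572 ± 0.775), and no step exceeded the summed SDs. The 3 BMP receptors had lower means than Tgfbr2 on this scale in both groups.

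The other genes of the pathway were read by role from fixed lists, 62 genes in all, of which 40 were tested. By edgeR 0 passed the adjusted threshold. Unadjusted p values under 0.05 in edgeR were found for 2 genes higher in NEO1+, Smad3 and Neo1, and 1 lower, Pmepa1. Over all genes the shares were 3.11% higher and 3.49% lower. Neo1 encodes the protein on which the cells were sorted, so its place here is no result about the pathway. The median log2 fold change was 0.14, with 27 higher and 13 lower.

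Neo1 itself, with overlapping groups because of positive library 4, averaged 47.5 ± 20.6 CPM on the positive and 10.7 ± 5.66 CPM on the negative side (SD, n = 5 each). The difference of 2.16 log2 units (SE 0.47) had an unadjusted p of 0.000447 and an adjusted p of 0.248 in edgeR, and DESeq2 gave an adjusted p of 0.00044. Without positive library 4 the difference was 2.4 log2 units (edgeR adjusted p 0.183). The RGM partners were Rgmb, at 11.9 ± 6.07 and 6.84 ± 5.89 CPM (0.80 log2 units, SE 0.96), and Rgma and Hfe2, which had 0 counts in all libraries.

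Smad3 (chr9:63646767-63757994, minus strand), the receptor SMAD that binds DNA directly in the TGF-beta branch, was at 84.9, 87.1, 91.9, 72.1 and 76.9 CPM in positive libraries 1 to 5. The negative libraries 1 to 5 had 26.2, 35.7, 50.6, 55.6 and 60.8 CPM. The groups did not overlap, which 1.35% of all genes showed with NEO1+ above. The log2 fold change was 0.85 (SE 0.22, 95% interval 0.37 to 1.33) with an unadjusted p of 0.00194 and an adjusted p of 0.368 in edgeR. With 1 library left out it was 0.70 to 0.98 (0.90 without positive library 4), with edgeR adjusted p values of at least 0.241. DESeq2 gave an adjusted p of 0.0196, so the call depended on the tool.

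The other SMADs showed no such gap. Smad1, the main receptor SMAD of the BMP branch, was at 74.9 ± 9.77 and 80.9 ± 17.9 CPM in positive and negative libraries (log2 fold change -0.11, SE 0.17). Smad5, of the same branch, had a log2 fold change of -0.12 (SE 0.42) and the inhibitory Smad6 one of 0.13 (SE 0.57). Smad9 had 0 counts. Summed, the receptor SMADs of the TGF-beta branch were at 137 ± 11.2 and 101 ± 29.6 CPM, and those of the BMP branch at 104 ± 11 and 112 ± 22.6 CPM (SD, n = 5 each).

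Pmepa1 (chr2:173224458-173276533, minus strand), a TGF-beta target whose product holds back SMAD2 and SMAD3, was low in both groups. In positive libraries 1 to 5 it had 4, 2, 11, 14 and 9 counts, or 0.192, 0.0512, 0.256, 0.426 and 0.261 CPM. In negative libraries 1 to 5 it had 84, 141, 64, 60 and 124 counts, or 2.67, 6.60, 2.17, 1.82 and 4.10 CPM. The groups did not overlap, as for 1.13% of all genes with NEO1+ below. Pmepa1 passed the filter on low counts through the negative libraries, where it was higher. The gap and the p values of Pmepa1 are thus a description only. On the log2 scale the fold change of -3.85 (SE 1.17, 95% interval -6.38 to -1.32) had an unadjusted p of 0.00578 and an adjusted p of 0.491 in edgeR. The DESeq2 adjusted p was 0.00247. The fold change stayed between -4.16 (without positive library 4) and -3.48 with 1 library left out.

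**Figure D4:**
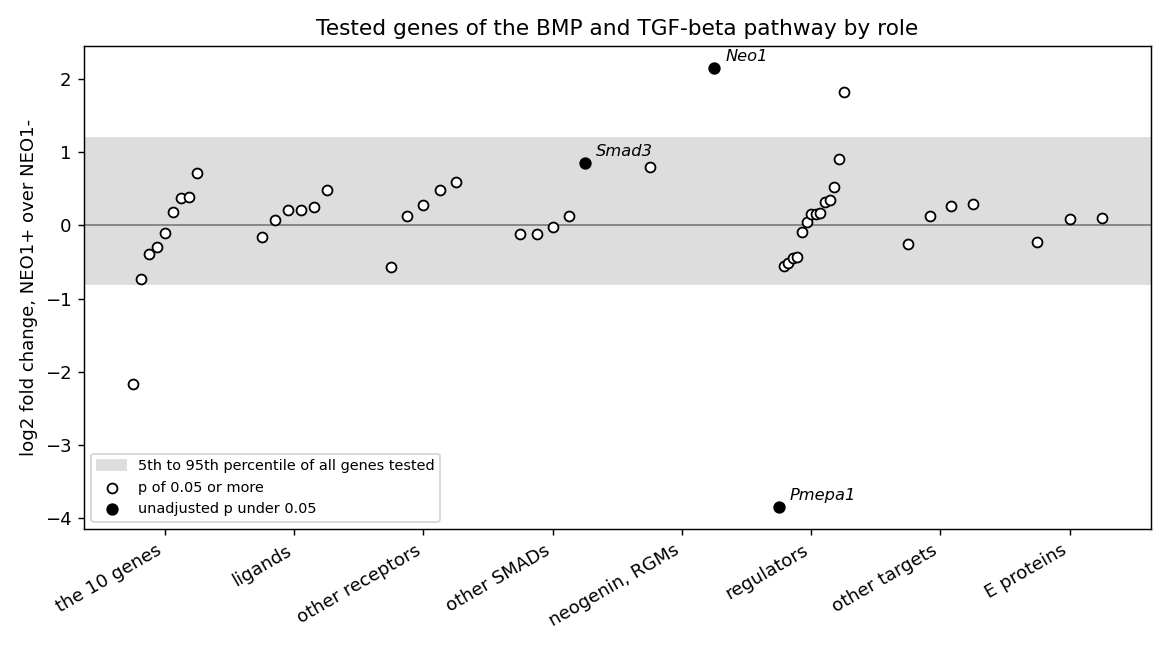
Log2 fold change of NEO1+ over NEO1- for the tested genes of the pathway by role, with unadjusted p under 0.05 filled and the 5th to 95th percentile of all genes tested (-0.80 to 1.20) as a grey band. Smad3 lies within the band, and Neo1 and Pmepa1 lie outside it.

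Of the other receptors 5 of 8 were tested. Tgfbr3, or betaglycan, a co-receptor for TGF-beta, was at 44.6 ± 15.2 and 29.4 ± 14.7 CPM in positive and negative libraries. The difference was 0.60 log2 units (SE 0.36, edgeR adjusted p 0.863). Eng, or endoglin, a co-receptor for TGF-beta and BMP9 that marks these stem cells as well as endothelium, was at 433 ± 39.3 and 395 ± 42.2 CPM on the same sides (0.13 log2 units, SE 0.10). Of the receptors with a lower level in NEO1+, Acvr1b had a log2 fold change of -0.57 (SE 1.02).

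Of 18 regulators 15 were tested, 9 with a higher and 6 with a lower level in NEO1+. Tgif1, a co-repressor of SMADs, was at 43.3 ± 12.8 and 59.2 ± 7.95 CPM on the 2 sides (-0.45 log2 units, SE 0.22, edgeR unadjusted p 0.0597). Ltbp4, which stores latent TGF-beta in matrix, was at 27.3 ± 8.32 and 18.9 ± 2.59 CPM (0.53, SE 0.29). Smurf1, a ubiquitin ligase for BMP SMADs, was at 17.1 ± 3.41 and 4.82 ± 6.23 CPM (1.83, SE 1.06, edgeR adjusted p 0.848), with overlapping groups. With the replicate block in DESeq2 it was called, at 3.25 log2 units (adjusted p 0.00969). The library numbers were not taken as pairs, so that call is a description only.

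Of 11 other genes known to respond to BMPs or TGF-beta 4 were tested. Msx1, Msx2, Hey1 and Atoh8 had 0 counts in all libraries. Of the tested genes, Cdkn1c, the cell cycle inhibitor p57 linked to TGF-beta and rest in stem cells, was at 230.0 ± 35.2 and 187 ± 28.6 CPM in positive and negative libraries. Its log2 fold change was 0.30 (SE 0.14, edgeR unadjusted p 0.0532, adjusted 0.757). Junb had a log2 fold change of 0.26 (SE 0.20) and Tgfbi one of -0.25 (SE 0.53). Immediate early genes, which handling of cells can raise, ranged in sum from 5280 to 11000 CPM on the positive and from 5820 to 10900 CPM on the negative side.

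The E proteins that ID proteins bind had counts in all libraries, and 0 of 3 had an unadjusted p under 0.05 in edgeR. Tcf3 was at 119 ± 18.5 and 112 ± 16.1 CPM, Tcf4 at 74.2 ± 19.8 and 68.8 ± 17.4 CPM, and Tcf12 at 37.5 ± 15.5 and 43.8 ± 12.2 CPM in positive and negative libraries (SD, n = 5 each). Their log2 fold changes were 0.09 (SE 0.15), 0.11 (SE 0.22) and -0.22 (SE 0.31). Summed Id transcripts, with Id4 included, were 39.5 ± 9.82 and 33.1 ± 12.7 CPM.

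**Figure D5:**
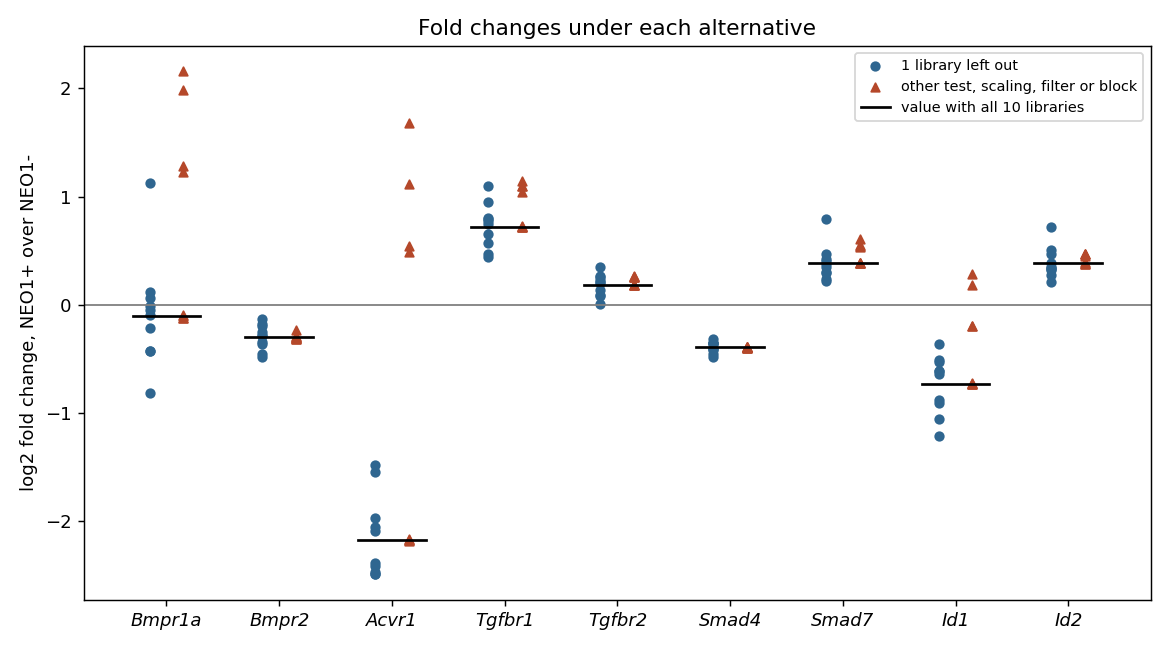
Log2 fold change of each tested member with all 10 libraries (line), with 1 library left out (circles) and under the other tests, scalings, filters and blocks (triangles). Smad4 stays between -0.48 and -0.32, whereas Bmpr1a, Acvr1 and Id1 have values on both sides of 0.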

How the data were processed

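Smart-seq2 libraries (18 PCR cycles, Nextera tagmentation, no molecular identifiers) were made, per the labels' protocols. The authors deposited raw counts per gene symbol and a table of log2 values, which equalled log2 of the count over 1 constant per library plus 1 (largest residual 5.2e-14). The submitters' processing notes list STAR 2.4, DESeq2 1.22.2 and build mm10, with no roles. The counting tool, annotation and strand use are not given in the sources used here.

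The members and gene lists were chosen with earlier results of these data known. All 10 genes are named. From each other pathway list up to 2 genes of smallest p per direction were to be named, and the 5 genes most like each Id gene. Some genes that this rule or the lists hold are not reported here. Ligands are in the closing section. Other names were chosen after their values were seen. Counts were tested with edgeR 4.0.16 (filterByExpr, TMM, robust quasi-likelihood fit, Benjamini-Hochberg over 12203 genes, threshold 0.05). Log2 CPM used a prior count of 2. Exon lengths came from GENCODE M21 on GRCm38, the build called mm10. DESeq2 1.42.0, limma 3.58.1, RLE scaling, no filter, no Rn45s, a replicate block and leaving out each library were alternatives. The edgeR script was tested on simulated counts. Libraries of a group differed beyond sampling noise (chi-square per degree of freedom at least 86.7). Labels do not say whether pools were independent sorts, so p values measure the spread between these libraries.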

Additional observations from a re-analysis of the deposited data

Results flagged for a closer look

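Within each group the values of the 10 genes were read for a library standing apart by Dixon's test on log2 CPM. Of 20 sets of 5 values 4 held one. Chance gives about 1 in 20 for untied values, a rate that does not apply to the 2 Id3 sets, where 4 libraries are tied at 0 counts and any library with reads stands apart. The Id1 value also rests on a count of 0, whose log2 level is set by the prior count. Tgfbr1 stood at 4.5 in positive (NEO1+) library 4, whereas the rest of the group ranged from 3.43 to 3.70. For Id1 it was negative (NEO1-) library 3, at -3.98 with 0 counts, whereas the rest ranged from 1.29 to 3.04. Id3 gave 0.24 in positive library 3 (48 counts) and 2.12 in negative library 1 (135 counts), with -3.98 and 0 counts in all other libraries.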

How the results depend on the processing

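Of the tested members, 0 of 9 passed in any alternative run. The number of genes that passed over the whole table was 0 in edgeR and 0 to 1 with 1 library left out (1 without negative library 1). It was 2 without the filter on low counts, 120 with DESeq2, 2 with limma-voom, 1 with limma-trend on the deposited log2 values and 695 with the replicate block in DESeq2. The median over all genes was 0.12 in limma-voom and 0.11 in limma-trend, against 0.01. Genes at an unadjusted p under 0.05 numbered 806, and 874 with the replicate block in edgeR, which called 0. Same-numbered libraries had correlations of 0.00 to 0.04 in their deviations, against a mean of -0.0042 for differing numbers. Of 10 libraries 4 correlated best with their own number. Neither these values nor the labels settle whether the numbers mark pairs, and they were not taken as pairs. The replicate block in DESeq2 called Smad3, Neo1, Pmepa1, Tgfb3 and Smurf1 among the other pathway genes, and DESeq2 without it the first 3. Calls of the block rest on numbers not taken as pairs and are a description only.

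Signs turned for 3 low genes, and the cause was not tested. Bmpr1a was 2.16 in limma-voom, 1.98 in limma-trend, 1.23 and 1.28 with the block in edgeR and DESeq2, and -0.81 to 1.12 with 1 library left out. Acvr1 was 1.68, 1.12, 0.49 and 0.54 in the same order, and Id1 0.28 and 0.18 in the limma fits. The r of Id1 and Id2 was -0.714 to -0.519 with 1 library left out. That of Id1 and Id3 was -0.168 (without negative library 1) to 0.323, and that of Id2 and Id3 -0.0198 (without positive library 3) to 0.380. Id3 rests on those 2 libraries. Bmpr1a, Acvr1 and Id1, with means under 10 CPM, had intervals of more than 2 log2 units on either side.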

Other observations

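Ligands of the family had reads in these cells, at low levels. Of 12 ligand genes 6 were tested and 0 passed in edgeR, with 0 at an unadjusted p under 0.05. Bmp4, known as a niche signal for blood stem cells, was at 8.22 ± 2.33 and 7.12 ± 4.33 CPM in positive (NEO1+) and negative (NEO1-) libraries (log2 fold change 0.21, SE 0.66). Tgfb3 was at 5.37 ± 2.65 and 3.84 ± 5.33 CPM (0.48, SE 1.62), and Tgfb1 at 4.63 ± 2.77 and 5.19 ± 4.13 CPM (-0.16, SE 0.91; SD, n = 5 each). Tgfb3 had 0 counts in negative libraries 1, 2 and 4. The replicate block in DESeq2 called it, at 6.28 log2 units (adjusted p 0.00151), a fitted value that is no bound. Tgfb3 passed the filter on low counts through the positive libraries, where its mean was higher. The library numbers were not taken as pairs either, so that call is a description only. Bmp5, Bmp6 and Inhbb had 0 counts. Tgfb2, named after its values were seen, had 0, 209, 69, 41 and 10 counts in positive libraries 1 to 5 and 0 in all negative libraries. It did not pass the filter on low counts and was not tested.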
